A study of Homo sapiens with 12 samples.

Results

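CHRNA9 encodes the α9 subunit of the nicotinic acetylcholine receptors, and it was followed here across 12 RNA-seq libraries of DAOY medulloblastoma cells beside 3 other subunits, CHRNA5 (α5), CHRNA7 (α7) and CHRNB1 (β1). The members are the 4 genes of that family selected on their measured levels in these same libraries, out of 63677 gene identifiers in the tables. CHRNA9 was chosen by how its TPM differed over genotypes and cultures, so its levels and differences are a description and carry no test. TPM is a transcript level corrected for transcript length and scaled to the same total in each library.

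DAOY is an established human cell line derived from a medulloblastoma, a tumour of the cerebellum. The groups were NOTCH1KO cells and NOTCH2KO cells, which carry CRISPR/Cas9 disruptions of NOTCH1 or of NOTCH2, and WT cells, the parental line. Each genotype was grown on plates coated with the Notch ligand Jagged1 or with the Fc control, and with DAPT, a γ-secretase inhibitor that blocks the cleavage of Notch receptors, for 12 h or with DMSO. This gave 4 cultures (Jagged1 with DAPT, Jagged1 with DMSO, Fc with DAPT and Fc with DMSO) in 3 genotypes, with 1 library for each combination and therefore no replicate within one. The labels name no separate clones of a genotype, so an effect of the disrupted gene and a difference between lines cannot be told apart. The estimated depth was 18300000 to 22400000 reads per library, to the nearest 100000. NOTCH1 was at 0.28 to 0.87 TPM in NOTCH1KO libraries, against 2.78 to 3.57 TPM in WT libraries. NOTCH2 was at 41.6 to 60.5 TPM in NOTCH2KO libraries, against 74.9 to 94.9 TPM in WT libraries, and an edited gene can still give RNA.

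Nicotinic receptors are cation channels made of a ring of subunits and opened by acetylcholine. The α9 subunit forms channels by itself or with α10 and is best known from the hair cells of the inner ear, where calcium that enters through it opens calcium-activated potassium channels; it is also present in keratinocytes. The α7 subunit forms channels by itself, α5 is an accessory subunit that joins other α and β subunits in neurons, and β1 is a subunit of the receptor of skeletal muscle. In Notch signalling the receptor is cut by γ-secretase after it binds ligand, and its intracellular domain joins the DNA-binding protein CSL and turns on genes such as HES1 and HEY1.

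CHRNA9 (ENSG00000174343) lay on chromosome 4 of GRCh37, from 40337346 to 40357234 on the plus strand, and no other annotated gene overlapped it. The 250 bases before the start of CHRNA9 in RefSeq are shown because CHRNA9 was lower with DAPT in every pair of libraries, and those of CHRNB1 because it was higher with DAPT in every pair. They were taken from the plus strand of GRCh38.p14 (chr4:40335083-40335332 and chr17:7444811-7445060), a later build than that of the level tables. Capitals would mark the core of the CSL site (TGGGAA or TTCCCA) and the E-box bound by HES and HEY proteins and other factors (CACGTG, which reads the same on both strands).

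CHRNA9: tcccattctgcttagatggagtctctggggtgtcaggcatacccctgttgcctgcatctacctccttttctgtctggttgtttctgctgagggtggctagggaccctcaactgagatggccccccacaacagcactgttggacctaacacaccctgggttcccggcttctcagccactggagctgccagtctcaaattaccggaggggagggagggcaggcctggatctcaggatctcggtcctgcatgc

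CHRNB1: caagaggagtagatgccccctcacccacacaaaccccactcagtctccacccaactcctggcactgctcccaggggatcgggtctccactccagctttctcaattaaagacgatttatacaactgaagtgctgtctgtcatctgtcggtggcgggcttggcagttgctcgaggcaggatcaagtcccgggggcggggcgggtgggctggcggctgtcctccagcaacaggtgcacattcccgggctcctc

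Neither window held either motif. Among 35116 promoter windows of the same length, 20.8% held the CSL core and 6.34% the E-box. The absence of these letters from a window says nothing about binding elsewhere at the gene.

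CHRNA9 was highest in WT cells on Jagged1 with DMSO and lowest in NOTCH2KO cells on Fc with DAPT, with 27.2 TPM and 1.09 TPM, a 24.9-fold range. In NOTCH1KO cells it was at 1.77 TPM on Jagged1 with DAPT, 8.20 TPM on Jagged1 with DMSO, 2.48 TPM on Fc with DAPT and 5.84 TPM on Fc with DMSO. In NOTCH2KO cells the same 4 cultures gave 1.18, 5.66, 1.09 and 2.85 TPM. In WT cells they gave 6.38, 27.2, 4.996 and 13.0 TPM. In all 3 genotypes the culture on Jagged1 with DMSO was the highest, Fc with DMSO came next, and both cultures with DAPT were lowest. In all 4 cultures WT cells had the highest level, NOTCH1KO cells came next and NOTCH2KO cells had the lowest.

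**Figure D1:**
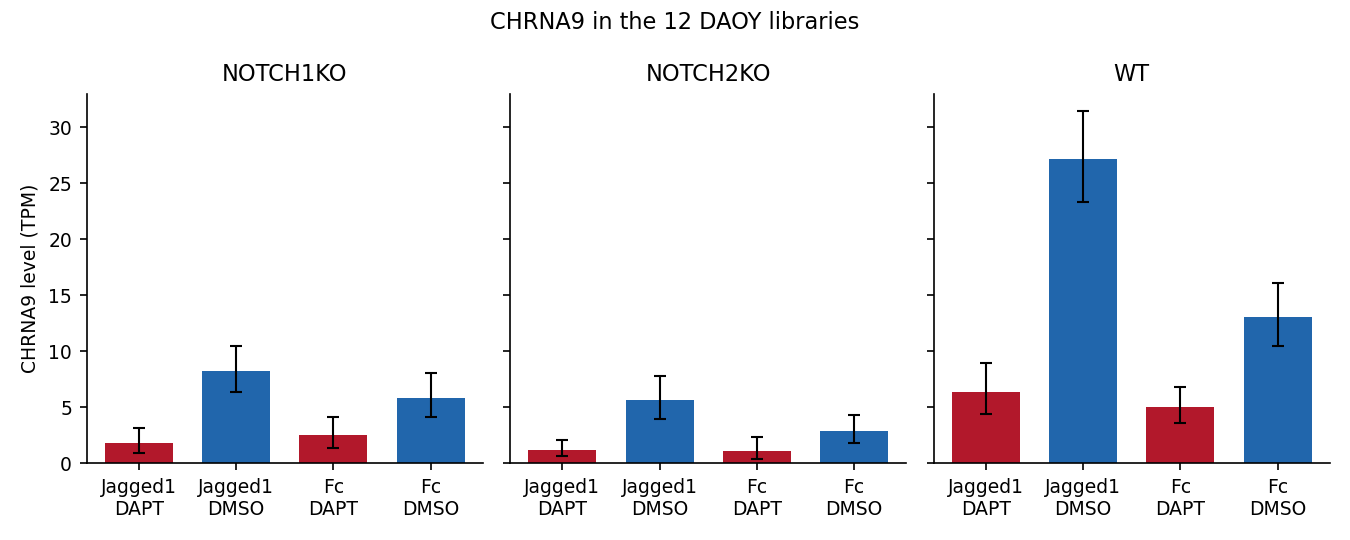
CHRNA9 level (TPM, y axis) in each of the 12 libraries, by culture (x axis; red, DAPT; blue, DMSO) in NOTCH1KO, NOTCH2KO and WT cells; bars are single libraries, and error bars are 95% exact Poisson intervals of the estimated reads, which cover counting error only. The tallest bar is WT on Jagged1 with DMSO at 27.2 TPM, and the DAPT bar is below the DMSO bar on the same plate in all 3 genotypes.

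These levels rested on few reads. The estimated number of reads on CHRNA9, from the deposited coverage and the length of its merged exons, was 6 to 180 per library. In WT cells on Jagged1 with DMSO it was 180 (95% exact Poisson interval 155 to 208), and in NOTCH2KO cells on Fc with DAPT it was 6 (2.20 to 13.1). When the 12 levels were put in order, 10 of the 11 neighbouring pairs had overlapping counting intervals, and the exception was the step between WT on Jagged1 with DMSO and WT on Fc with DMSO. Among the cultures with DAPT, the NOTCH2KO level on Jagged1 (12 estimated reads) and the NOTCH1KO level on Jagged1 (11 estimated reads) could not be put in order at this depth. The counting intervals of NOTCH1KO and NOTCH2KO cells overlapped in every culture. On Jagged1 with DMSO they were 6.31 to 10.5 TPM and 3.98 to 7.80 TPM. Within each knockout these also overlapped the intervals on Fc with DMSO, which were 4.09 to 8.09 TPM in NOTCH1KO cells and 1.79 to 4.32 TPM in NOTCH2KO cells. The counting intervals and the numbers of reads cover counting error only, since polymerase copies of one molecule were not marked.

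DAPT went with a lower CHRNA9 level on both plates. On Jagged1, the level with DAPT was 0.216 times that with DMSO in NOTCH1KO cells, 0.209 times in NOTCH2KO cells and 0.235 times in WT cells. The mean difference on the log2(TPM + 1) scale was -1.76 ± 0.16 (SD over the 3 genotypes). On Fc the ratios were 0.424 in NOTCH1KO cells, 0.382 in NOTCH2KO cells and 0.383 in WT cells, a mean difference of -1.03 ± 0.18. All 6 pairs went the same way, in TPM and in coverage scaled to the depth of each library. In NOTCH2KO cells on Fc the counting intervals with DAPT (0.40 to 2.37 TPM) and with DMSO (1.79 to 4.32 TPM) overlapped. In NOTCH1KO cells on Fc they only just parted, at 1.39 to 4.08 TPM and 4.09 to 8.09 TPM. Of the 17621 genes with a mean of at least 1 TPM, 4% were lower with DAPT in all 6 pairs.

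On Jagged1 with DMSO, CHRNA9 was above Fc with DMSO by 1.40 times in NOTCH1KO cells, 1.98 times in NOTCH2KO cells and 2.08 times in WT cells. The mean log2 difference was 0.74 ± 0.29. With DAPT present the plates did not separate. The ratio of Jagged1 to Fc was then 0.714 in NOTCH1KO cells, 1.09 in NOTCH2KO cells and 1.28 in WT cells, with a mean log2 difference of 0.01 ± 0.32. The full order of cultures that CHRNA9 showed in each genotype was shared by 0.681% of the 17621 genes.

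NOTCH1KO cells had less CHRNA9 than WT cells in all 4 cultures, at 0.277 to 0.496 times the WT level, with a mean log2 difference of -1.21 ± 0.37 (SD over the 4 cultures). NOTCH2KO cells had 0.186 to 0.219 times the WT level, a mean log2 difference of -1.81 ± 0.23. NOTCH2KO cells were below NOTCH1KO cells in all 4 cultures in TPM (mean log2 difference -0.59 ± 0.23), but in coverage scaled to depth the ratio on Jagged1 with DAPT was 1.02. The order of WT over NOTCH1KO over NOTCH2KO in every culture was shown by 0.885% of genes. Both orders together were shown by 2 of the 17621 genes, CHRNA9 and FAP, which encodes fibroblast activation protein; this pair of conditions was set after the levels had been seen. The comparisons with WT share the same WT libraries.

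Whether the size of the response differed between genotypes was not tested for CHRNA9. On the log2(TPM + 1) scale the DAPT difference on Jagged1 was -1.73 in NOTCH1KO cells, -1.61 in NOTCH2KO cells and -1.93 in WT cells. As plain TPM ratios the same pairs gave 0.216, 0.209 and 0.235, so by ratio the fall was smallest in WT cells. The order of genotypes in this difference thus depended on the added 1. The Jagged1 difference in DMSO was 0.43 in NOTCH1KO cells, 0.79 in NOTCH2KO cells and 1.00 in WT cells. The difference of knockout from WT was thus present with DAPT as well as with DMSO. In cultures with DAPT on Jagged1, CHRNA9 differed from WT by -1.41 in NOTCH1KO cells and by -1.76 in NOTCH2KO cells. On Fc with DAPT it differed by -0.79 in NOTCH1KO cells and by -1.52 in NOTCH2KO cells. In that culture the counting intervals of NOTCH1KO cells (1.39 to 4.08 TPM) and WT cells (3.55 to 6.83 TPM) overlapped.

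The tables give 1 value per gene, and the level of the coding transcript of CHRNA9 could not be read from them. GENCODE release 29 lists 3 transcripts of the gene, a coding one of 2276 bases and noncoding ones of 622 and 465 bases. The ratio of coverage to FPKM, relative to that of genes with a single transcript, was 0.168 to 0.316 for CHRNA9, toward the low end that short transcripts give. The counting of reads to transcripts could therefore move the TPM, and the ratios in depth-scaled coverage were read beside it. In coverage, DAPT against DMSO on Jagged1 gave 0.176 in NOTCH1KO cells, 0.308 in NOTCH2KO cells and 0.198 in WT cells, and NOTCH2KO cells were at 0.141 to 0.322 times the WT coverage.

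HES1, a transcription factor and direct Notch target, served as a readout of the cultures. Its level on Jagged1 was 24.99 TPM with DAPT and 55.0 TPM with DMSO in NOTCH1KO cells, 35.7 and 65.35 TPM in NOTCH2KO cells, and 31.8 and 83.6 TPM in WT cells. On Fc it was 17.9 TPM with DAPT and 35.5 TPM with DMSO in NOTCH1KO cells, 27.0 and 40.2 TPM in NOTCH2KO cells, and 23.9 and 47.0 TPM in WT cells. HES1 was lower with DAPT in all 6 pairs, as CHRNA9 was. In NOTCH1KO cells HES1, like CHRNA9, was below WT in all 4 cultures, at 0.658 to 0.785 times the WT level (mean log2 difference -0.43 ± 0.11). In NOTCH2KO cells it was at 0.782 to 1.13 times the WT level, below WT with DMSO and above it with DAPT, whereas CHRNA9 was below WT in all 4 cultures. HEY1, another such factor, was at 3.81 TPM with DAPT and 31.5 TPM with DMSO on Jagged1 in NOTCH1KO cells, 13.1 and 18.3 TPM in NOTCH2KO cells, and 10.9 and 56.6 TPM in WT cells. Pearson r of log2 levels was taken over the 12 libraries after each genotype's mean was taken away. For CHRNA9 it was 0.95 with HES1, 0.84 with HEY1, 0.81 with NRARP and 0.75 with NOTCH3. Before the means were taken away these were 0.71, 0.68, 0.52 and 0.71. They describe libraries that share their cultures. NRARP was lower with DAPT in all 6 pairs, but above WT in 3 of 4 cultures in each knockout. In NOTCH2KO cells Jagged1 against Fc in DMSO gave ratios of 0.798 for NRARP and 0.967 for NOTCH3. On Fc, NOTCH3 in these cells was at 1.33 TPM with DAPT and 0.246 TPM with DMSO. HEYL, a further readout, was at 0 to 1.35 TPM.

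**Figure D2:**
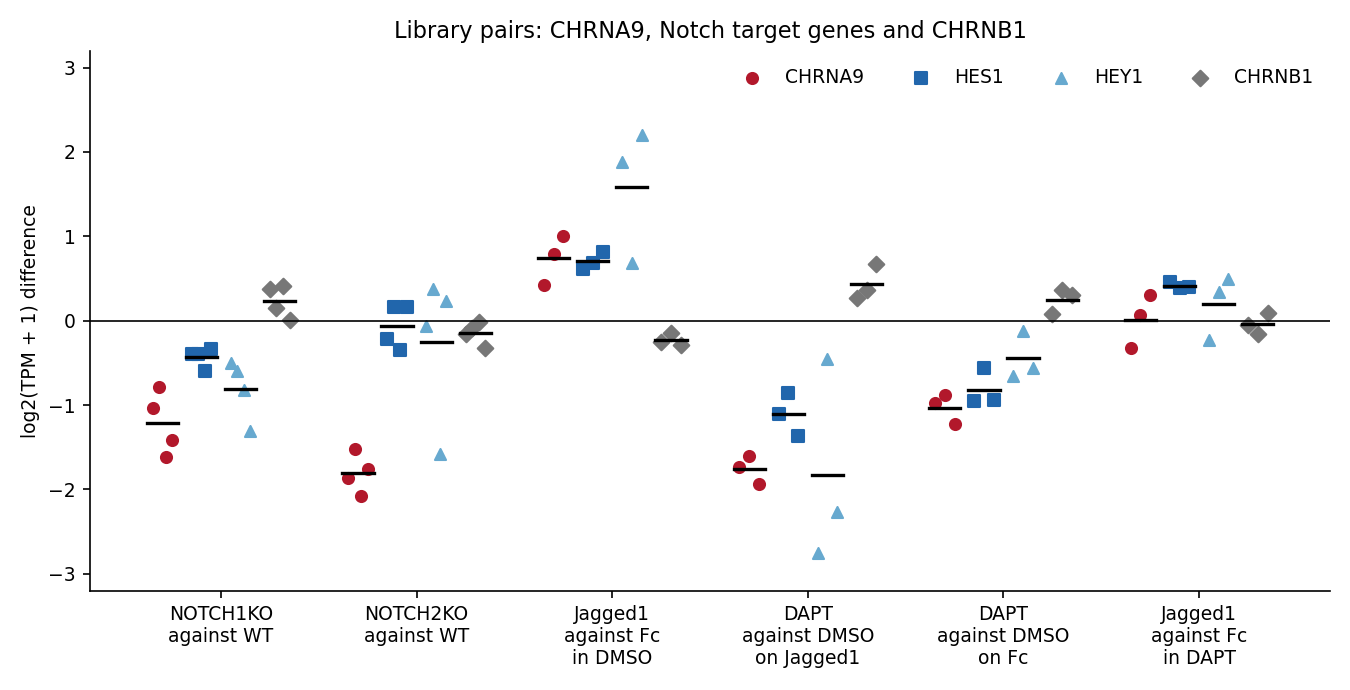
Differences in log2(TPM + 1) (y axis) between paired libraries for CHRNA9 (red circles), HES1 (dark blue squares), HEY1 (light blue triangles) and CHRNB1 (grey diamonds) in 6 comparisons (x axis); each point is 1 pair of libraries and black lines are means. CHRNA9 is below 0 in every pair against WT and in every DAPT pair, with means of -1.81 for NOTCH2KO against WT and -1.76 for DAPT on Jagged1, while CHRNB1 is above 0 in every DAPT pair.

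CHRNB1 (ENSG00000170175, chromosome 17, 7348380 to 7361026, plus strand) went the other way under DAPT. It was at 12.3 TPM on Jagged1 with DAPT, 9.98 TPM on Jagged1 with DMSO, 12.7 TPM on Fc with DAPT and 12.0 TPM on Fc with DMSO in NOTCH1KO cells. In NOTCH2KO cells the same cultures gave 9.49, 7.17, 10.7 and 8.07 TPM, and in WT cells 12.2, 7.28, 11.4 and 9.09 TPM. The lowest culture in each genotype was Jagged1 with DMSO, where CHRNA9 was highest. DAPT was above DMSO in 6 of 6 pairs, by a mean of 0.34 ± 0.19 on the log2(TPM + 1) scale, and so were 3.49% of the 17621 genes. Between genotypes CHRNB1 differed less than CHRNA9, with mean log2 differences from WT of 0.23 ± 0.19 in NOTCH1KO cells and -0.15 ± 0.13 in NOTCH2KO cells. Its estimated reads were 91 to 176 per library. A gene of the same strand that overlaps it had a mean of 0.28 TPM.

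CHRNA5 (ENSG00000169684, chromosome 15, 78857862 to 78887611, plus strand) was at a level like that of CHRNB1, between 2.99 and 14.4 TPM. On Jagged1 with DAPT, Jagged1 with DMSO, Fc with DAPT and Fc with DMSO it was at 9.45, 7.98, 14.4 and 8.23 TPM in NOTCH1KO cells. In NOTCH2KO cells these cultures gave 7.43, 2.99, 5.64 and 5.33 TPM, and in WT cells 9.81, 6.12, 10.8 and 12.5 TPM. In TPM, NOTCH2KO cells were below WT cells in all 4 cultures (mean log2 difference -0.78 ± 0.31), whereas NOTCH1KO cells were above WT in 2 cultures and below it in the other 2. In depth-scaled coverage NOTCH2KO cells were again below WT in all 4 cultures, at 0.395 to 0.883 times its level. NOTCH1KO cells were above WT in all 4 by that measure, at 1.19 to 1.68 times. DAPT was above DMSO in 5 of 6 pairs in TPM and in 4 of 6 in depth-scaled coverage. The TPM of CHRNA5 moved with the transcripts to which its reads were assigned. In WT cells it was 6.12 TPM on Jagged1 with DMSO and 12.5 TPM on Fc with DMSO, while the estimated reads were 213 and 210. The genes that overlap it, on the other strand, were at or below a mean of 0.148 TPM, and the libraries were made with a stranded kit.

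CHRNA7 (ENSG00000175344, chromosome 15, 32322691 to 32464722, plus strand) had the lowest mean level of the 4 (1.36 TPM) and was listed at 0 in 4 libraries. On Jagged1 with DAPT, Jagged1 with DMSO, Fc with DAPT and Fc with DMSO it was at 1.95, 0, 1.98 and 0 TPM in NOTCH1KO cells. In NOTCH2KO cells the same cultures gave 3.74, 3.18, 2.96 and 0 TPM, and in WT cells 0, 0.40, 0.34 and 1.82 TPM. These values are uncertain, because part of CHRNA7 is duplicated in CHRFAM7A, a fusion gene on the same chromosome, and reads from the shared exons cannot be told apart. CHRFAM7A was at 3.32 to 3.93 TPM in NOTCH1KO libraries, 5.07 to 6.79 TPM in NOTCH2KO libraries and 2.92 to 3.99 TPM in WT libraries, so that NOTCH2KO cells did not overlap the others. The summed TPM of CHRNA7 and CHRFAM7A was 3.55 to 5.60 in NOTCH1KO libraries, 5.07 to 10.5 in NOTCH2KO libraries and 3.32 to 5.31 in WT libraries, so that in the sum NOTCH2KO cells overlapped both other genotypes.

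**Figure D3:**
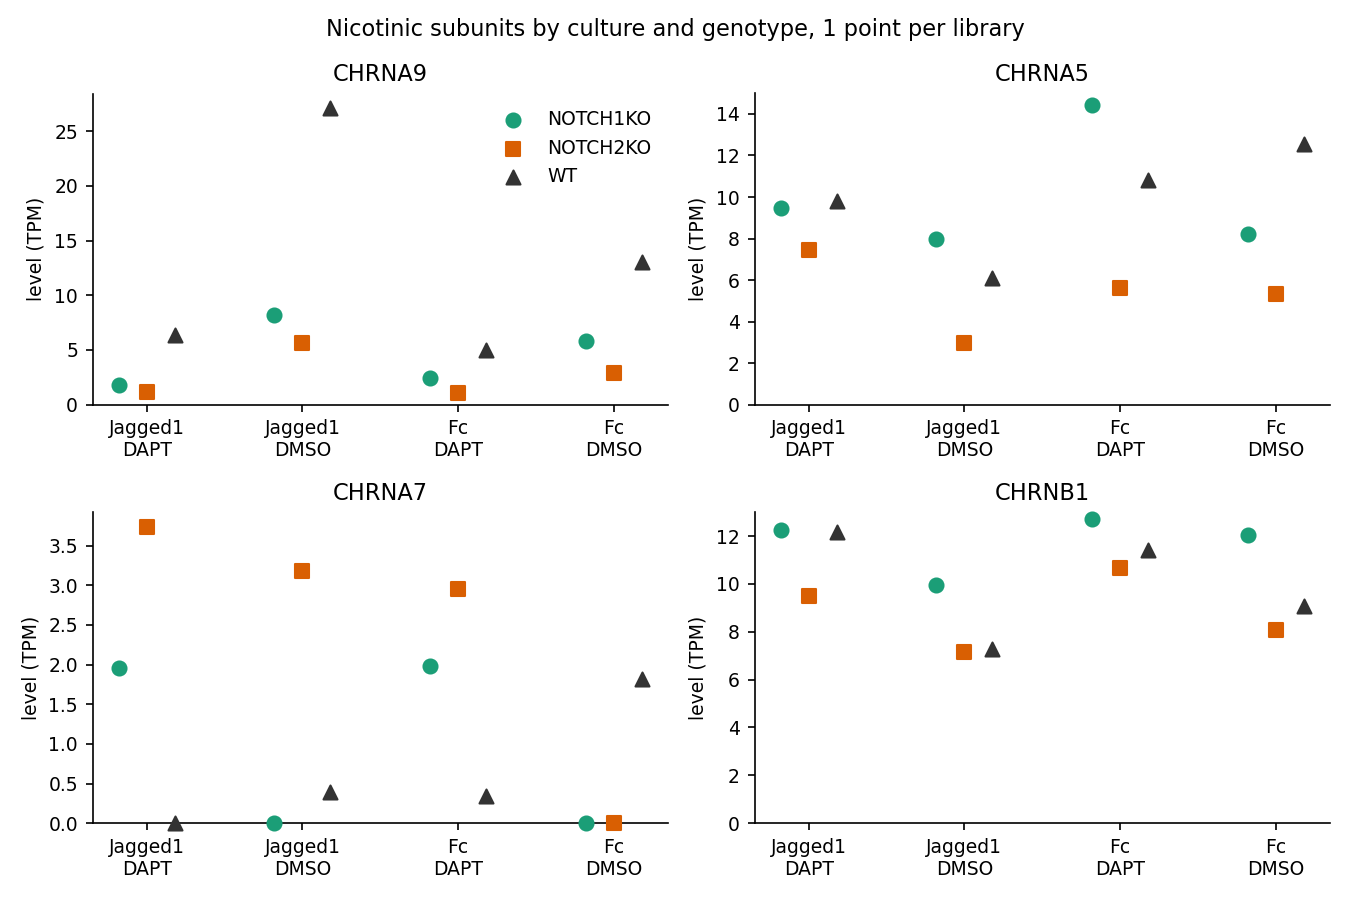
Level (TPM, y axis) of CHRNA9, CHRNA5, CHRNA7 and CHRNB1 by culture (x axis) in NOTCH1KO (green circles), NOTCH2KO (orange squares) and WT cells (black triangles); each point is 1 library. CHRNA9 has its 3 highest values at 27.2, 13.0 and 8.20 TPM, all with DMSO, while CHRNB1 stays between 7.17 and 12.7 TPM and CHRNA7 is at 0 in 4 libraries.

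Of the other receptor subunits, CHRNA10, the partner of CHRNA9 in hair cells, was below 1 TPM in all 12 libraries (0.276 to 0.965 TPM). CHRNB2, a β subunit of neuronal receptors, was at 0.667 to 2.08 TPM. Of 13 further nicotinic genes listed, CHRFAM7A included, 6 were at 0 in all 12 libraries, namely CHRNA2, CHRNA4, CHRNA6, CHRNB3, CHRND and CHRNG, and only CHRNB2 and CHRFAM7A reached a mean of 1 TPM. The genes of acetylcholine synthesis and vesicle loading, CHAT, SLC18A3 and SLC5A7, were at 0 throughout. The 5 muscarinic receptor genes had means below 1 TPM.

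The remaining genes of acetylcholine receptors and their partners were tested in a model across all genes (limma on log2(TPM + 1), with genotype and culture as additive terms and Benjamini-Hochberg adjustment). Its p-values measure how far single libraries depart from additivity, not the spread between replicate cultures. Of 47 listed genes, 15 had a mean of at least 1 TPM and were tested. In NOTCH1KO cells 2 of the 15 were higher than in WT (10.7% of all tested genes were) and 4 were lower (12.8% of all). In NOTCH2KO cells 5 were higher (12% of all) and 1 was lower (7.35% of all). The median log2 difference of the list was -0.07 in NOTCH1KO cells, where that of all tested genes was 8.8e-05, and 0.26 in NOTCH2KO cells, where that of all tested genes was 0.06.

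LYPD1 and LYPD6, membrane-anchored proteins of the Ly6 family that bind nicotinic receptors, were higher in both knockouts. LYPD1 was at 60.2, 44.1, 61.6 and 73.8 TPM in NOTCH1KO cells (Jagged1 with DAPT, Jagged1 with DMSO, Fc with DAPT, Fc with DMSO), against 20.1, 15.4, 27.2 and 29.02 TPM in WT cells. The groups did not overlap, and the log2 difference was 1.37 ± 0.11 (SE, limma adjusted p = 0.00017). In NOTCH2KO cells LYPD1 was at 27.7, 29.04, 32.9 and 39.96 TPM in the same cultures, and the log2 difference from WT was 0.51 ± 0.11 (limma adjusted p = 0.016). The call in NOTCH2KO cells was lost without WT on Jagged1 with DMSO (limma adjusted p = 0.053) or WT on Jagged1 with DAPT (limma adjusted p = 0.0504). LYPD6 was at 13.22, 10.03, 14.8 and 12.2 TPM in NOTCH1KO cells and 16.3, 17.6, 16.3 and 14.5 TPM in NOTCH2KO cells, against 11.2, 6.90, 9.28 and 7.35 TPM in WT cells. Its log2 difference from WT was 0.50 ± 0.13 in NOTCH1KO cells (limma adjusted p = 0.028) and 0.85 ± 0.13 in NOTCH2KO cells (limma adjusted p = 0.0040). NOTCH2KO cells did not overlap WT cells, whereas NOTCH1KO cells did. In coverage scaled to the median of each library, with 1 added before the log, the LYPD6 differences were 0.29 and 0.43. In TPM with a pseudocount of 0.1 they were 0.54 and 0.92. The NOTCH1KO call was lost without any one of WT on Fc with DMSO, WT on Fc with DAPT, WT on Jagged1 with DMSO, NOTCH1KO on Fc with DMSO or NOTCH1KO on Fc with DAPT (limma adjusted p of 0.076 to 0.089).

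VSNL1, a calcium sensor that promotes the surface expression of some nicotinic receptors, was at 0.50, 0.19, 0.28 and 0.16 TPM in NOTCH1KO cells, against 5.25, 7.25, 4.38 and 4.001 TPM in WT cells in the same order of cultures. The groups were far apart, with a log2 difference of -2.26 ± 0.21 (limma adjusted p = 0.00029). This difference was -0.50 in coverage scaled to the median of each library, with 1 added before the log. In TPM with a pseudocount of 0.1 it was -3.85. At such low levels its size depends on how far the added constant shrinks the values. BCHE, butyrylcholinesterase, which breaks down choline esters, was lower in both knockouts. It was at 3.40, 2.04, 2.87 and 2.95 TPM in NOTCH1KO cells and 0.71, 1.02, 0.85 and 0.87 TPM in NOTCH2KO cells, against 6.01, 6.83, 5.33 and 5.01 TPM in WT cells. No group overlapped another, and the log2 differences from WT were -0.84 ± 0.15 (limma adjusted p = 0.0067) in NOTCH1KO cells and -1.86 ± 0.15 (limma adjusted p = 0.00021) in NOTCH2KO cells. CHRFAM7A was higher in NOTCH2KO cells by 0.55 ± 0.11 (limma adjusted p = 0.011).

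The calcium-activated potassium channel KCNN4 was lower in NOTCH1KO cells, at 15.4, 6.41, 12.3 and 15.3 TPM, against 22.3, 29.5, 25.5 and 41.9 TPM in WT cells. Its log2 difference was -1.24 ± 0.29 (limma adjusted p = 0.018), and the call was lost without WT on Fc with DMSO, WT on Fc with DAPT, WT on Jagged1 with DMSO or NOTCH1KO on Jagged1 with DMSO (limma adjusted p of 0.0503 to 0.063). KCNN2, the channel paired with α9 receptors in hair cells, had a mean of 0.707 TPM and was not tested. The last 3 calls were weak. LY6E, of the Ly6 family, was lower in NOTCH1KO cells by a log2 difference of -0.98 ± 0.31 (limma adjusted p = 0.048), and UBXN2A, an assembly factor, and AGRN, which clusters receptors in muscle, were higher in NOTCH2KO cells by 0.34 ± 0.10 (limma adjusted p = 0.049) and 0.88 ± 0.26 (limma adjusted p = 0.047). Leaving out a single library kept the call in 3 of 12 fits for LY6E, 2 of 12 for UBXN2A and 3 of 12 for AGRN, with limma adjusted p up to 0.147, 0.156 and 0.135.

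**Figure D4:**
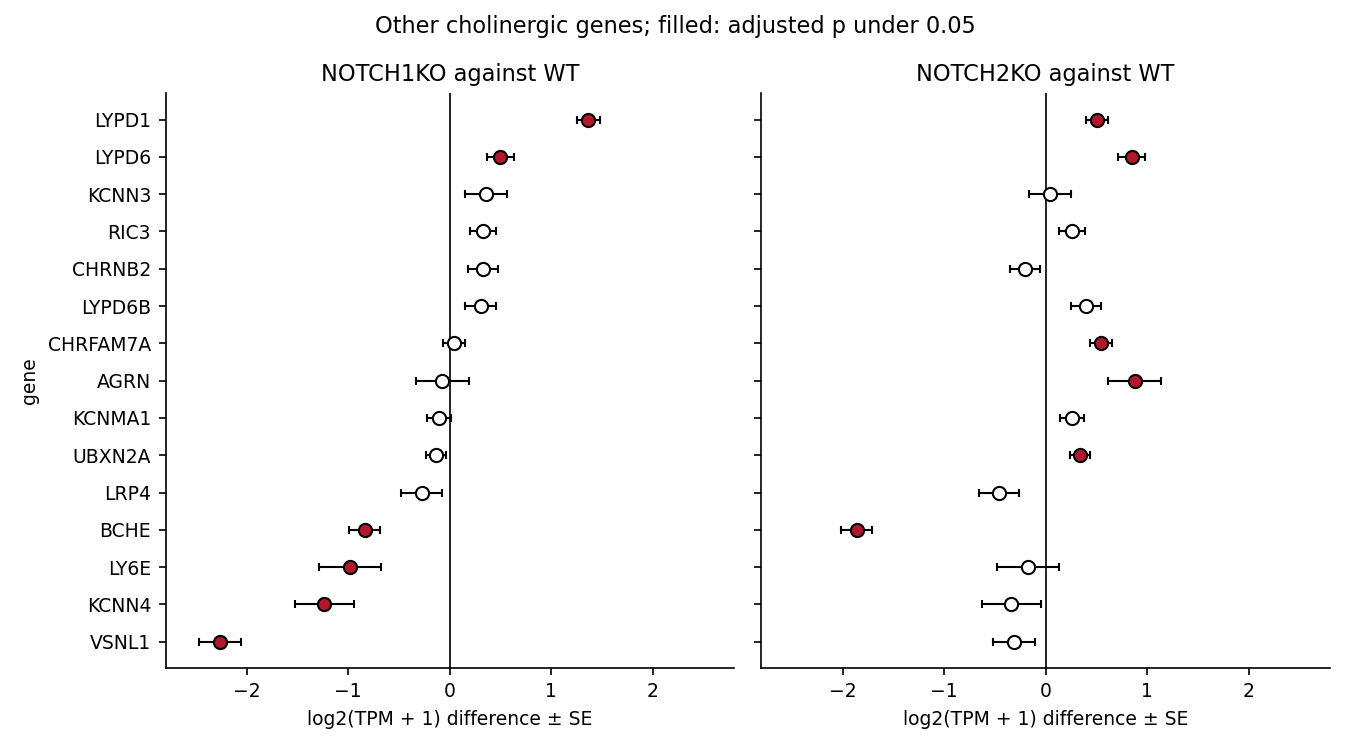
Difference in log2(TPM + 1) ± SE (x axis) of the 15 tested cholinergic genes (y axis) in NOTCH1KO against WT (left) and NOTCH2KO against WT (right), from limma over 12 libraries; filled points passed an adjusted p under 0.05. LYPD1 and LYPD6 are to the right of 0 and BCHE to the left in both panels, while VSNL1 at -2.26 is far from 0 only for NOTCH1KO.

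The cultures moved none of these genes past the threshold. By limma, 0 of the 15 genes passed for Jagged1 against Fc in DMSO, DAPT against DMSO on Jagged1, DAPT against DMSO on Fc or Jagged1 against Fc in DAPT. At an unadjusted p under 0.05 the counts were 2, 2, 1 and 1. Few genes passed in the whole table either, with 0.0114%, 0.0284%, 0.0341% and 0.00568% of the 17621 tested genes called in these comparisons. The difference in the response to Jagged1 with DMSO between knockout and WT was called by limma for 0 of the 15 genes in either knockout (1 gene for NOTCH1KO and 2 genes for NOTCH2KO at an unadjusted p under 0.05), where 0.0851% of all tested genes were called for each knockout. LYPD1 had a log2 difference of -0.68 ± 0.13 for Jagged1 against Fc in DMSO (limma adjusted p = 0.22).

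The genes near CHRNA9 on chromosome 4 were read for differences that follow position. Of 50 annotated genes that start within 1 Mb of it, 17 had a mean of at least 1 TPM. In NOTCH1KO cells 2 of the 17 were higher than in WT and 2 lower, where 10.7% and 12.8% of all tested genes were. In NOTCH2KO cells none was higher and 3 were lower, where 12% and 7.35% of all tested genes were. Their median log2 difference was 0.04 in NOTCH1KO cells, where that of all tested genes was 8.8e-05, and -0.25 in NOTCH2KO cells, where that of all tested genes was 0.06. RBM47, which encodes an RNA-binding protein, was the one gene lower in both. It was at 3.44, 4.68, 2.30 and 2.39 TPM in NOTCH1KO cells and 3.70, 4.65, 2.45 and 2.66 TPM in NOTCH2KO cells (Jagged1 with DAPT, Jagged1 with DMSO, Fc with DAPT, Fc with DMSO), against 5.28, 7.21, 3.55 and 3.94 TPM in WT cells. In each culture both knockouts were below WT, and the log2 differences were -0.51 ± 0.09 (limma adjusted p = 0.0060) and -0.45 ± 0.09 (limma adjusted p = 0.012). Within each genotype RBM47, like CHRNA9, was highest on Jagged1 with DMSO, but the culture difference of 0.70 ± 0.11 over Fc did not pass (limma adjusted p = 0.19). The other calls were NSUN7 (1.08 ± 0.25, limma adjusted p = 0.017), APBB2 (0.55 ± 0.16, limma adjusted p = 0.042) and the pseudogene RP11-472B18.1 (-0.47 ± 0.14, limma adjusted p = 0.038) in NOTCH1KO cells. In NOTCH2KO cells they were LIAS (-0.36 ± 0.09, limma adjusted p = 0.031) and a processed pseudogene at 39974748 to 39975062 (-0.32 ± 0.08, limma adjusted p = 0.027). With single libraries left out, the call was kept in all 12 fits for RBM47 in both knockouts, in 11 for NSUN7 (limma adjusted p = 0.060 without WT on Fc with DMSO), and in 2 for APBB2, 3 for RP11-472B18.1, 5 for LIAS and 6 for the pseudogene at 39974748.

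The genes whose levels were most like those of CHRNA9 were sought among 10661 protein-coding genes with a mean of at least 5 TPM, by Pearson r of log2(TPM + 1) over the 12 libraries. The first 10 were LAMB3 (r = 0.95), TUBE1 (0.95), ADAMTS5 (0.93), RGS4 (0.91), FOXS1 (0.91), CPEB2 (0.91), COL3A1 (0.90), ZFP42 (0.90), TSPAN9 (0.89) and ZFP36L1 (0.89). LAMB3, a laminin chain of epithelial basement membranes, was at 14.9, 35.5, 15.0 and 24.7 TPM in NOTCH1KO cells and 10.6, 15.6, 11.4 and 16.0 TPM in NOTCH2KO cells, against 23.04, 52.2, 24.3 and 33.2 TPM in WT cells (Jagged1 with DAPT, Jagged1 with DMSO, Fc with DAPT, Fc with DMSO). It had the genotype order of CHRNA9 in all 4 cultures but not its culture order in NOTCH2KO cells. FOXS1, a forkhead transcription factor, had the culture order of CHRNA9 in each genotype, with 2.70, 11.02, 0.66 and 5.23 TPM in NOTCH1KO cells, 1.06, 3.37, 1.57 and 3.03 TPM in NOTCH2KO cells, and 3.27, 20.5, 4.70 and 12.0 TPM in WT cells. The ranking rests on which libraries and which measure are used. With ranks in place of log levels 4 of the 10 were again among the first 10, and after each genotype's mean was taken away none was. Within genotypes the first were then DSP, which encodes the desmosomal protein desmoplakin, ITGB3 and WNT5A (r = 0.98, 0.97 and 0.97). Over the 12 libraries CHRNA9 had an r of 0.02 with CHRNA5, -0.47 with CHRNA7 and -0.43 with CHRNB1. After each genotype's mean was taken away these were -0.73, -0.29 and -0.91.

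Markers of the cell types in which nicotinic subunits are best known were read in the same libraries. Of 5 hair cell markers none reached a mean of 1 TPM, and OTOF was at 0 throughout. Of 8 skeletal muscle markers MYOD1, MYF5, ACTA1 and CKM were at 0 throughout. MYOG and DES had means below 1 TPM, and only 2, MYH3 and TNNT1, reached it. The list summed to 19.3 to 27.5 TPM in NOTCH1KO libraries, 45.1 to 53.9 TPM in NOTCH2KO libraries and 22.5 to 30.6 TPM in WT libraries. Of 6 markers of the cerebellar granule neuron lineage 3, ZIC1, ZIC2 and PAX6, reached 1 TPM, and ATOH1, NEUROD1 and BARHL1 did not. That list summed to 29.3 to 42.0 TPM in NOTCH1KO libraries, 38.9 to 47.5 TPM in NOTCH2KO libraries and 42.2 to 44.4 TPM in WT libraries. Of 4 keratinocyte markers 3 reached 1 TPM and DSG3 was at 0 throughout. Their sum was higher in WT cells than in either knockout, as CHRNA9 was, but the knockouts overlapped, with 1.63 to 6.88 TPM in NOTCH1KO libraries and 2.75 to 5.26 TPM in NOTCH2KO libraries, against 8.72 to 21.6 TPM in WT libraries. Most of the WT sum was KRT14, at 0.22 to 2.62 TPM in NOTCH1KO libraries and 0.51 to 3.37 TPM in NOTCH2KO libraries, against 6.13 to 19.2 TPM in WT libraries. The part of these markers in the CHRNA9 difference was not tested. Of 7 neuron markers 6 reached 1 TPM, and their sum was highest in NOTCH2KO cells without overlap, with 35.7 to 55.3 TPM in NOTCH1KO libraries and 85.6 to 99.3 TPM in NOTCH2KO libraries, against 47.6 to 71.4 TPM in WT libraries. Its part in the NOTCH2KO differences, that of CHRNA5 included, was not tested. In bulk libraries fewer cells with a transcript and less of it per cell cannot be told apart.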

How the data were processed

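The libraries were poly-A selected, stranded and read as single 51-base reads, and per the labels the reads were converted with bcl2fastq 2.17 (CASAVA) and set against GRCh37; the aligner, the quantifier and the release of the annotation are not given in the sources used here. Per library, the authors deposited a table of coverage (mean depth over a gene), FPKM (fragments scaled to gene length and library size) and TPM for 63677 gene identifiers. In each library 10 to 18 rows repeated an identifier already present, and the entries of 1 identifier were summed. The members and the gene lists were chosen with earlier results of these data known. Differences of log2(TPM + 1) were fitted with limma 3.58.1 (R 4.3.3) on the 17621 genes with a mean of at least 1 TPM, with additive terms for genotype and culture (6 residual degrees of freedom; 4 with the interaction), and genes with a Benjamini-Hochberg adjusted p under 0.05 were called. The script was tested on simulated data. Depth was estimated from coverage over FPKM in genes with a single transcript, and reads of a gene from its coverage and merged exon length in GENCODE release 29. Named genes were all listed genes that were called, nicotinic subunits and genes within 1 Mb of CHRNA9 with a mean of at least 1 TPM that were called, and the 10 genes most like CHRNA9. Genes outside this rule (FAP, CHRNA10, KCNN2, DSP, ITGB3, WNT5A and those at 0) were named after their values had been seen. Pairs of libraries correlated at r of 0.92 to 0.98, and none was identical. Alternatives were a pseudocount of 0.1, no filter, a mean of at least 5 TPM, FPKM, coverage, centred medians, library weights, a log2 difference of at least 1, and each library left out; those for the genes near CHRNA9 were chosen after seeing the data.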

Additional observations from a re-analysis of the deposited data

Results flagged for a closer look

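CHRNA7 moved in opposite directions between groups in 4 contrasts, in every pair of libraries each time, and none of these differences was tested. Against DMSO, DAPT gave mean log2(TPM + 1) differences of 1.57 in NOTCH1KO cells and 1.08 in NOTCH2KO cells, and of -0.78 in WT cells. NOTCH1KO against WT gave a mean of 1.36 with DAPT and of -0.99 with DMSO. Jagged1 against Fc gave a mean of 1.16 in NOTCH2KO cells and of -0.72 in WT cells. Each mean holds 2 pairs of libraries, CHRNA7 was listed at 0 in 4 of the 12 libraries, and its reads cannot be separated from those of CHRFAM7A, so their part in these differences was not tested.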

How the results depend on the processing

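The CHRNA9 differences kept their direction for both knockouts, for DAPT on either plate and, in DMSO, for Jagged1 against Fc, under all alternatives run; that of Jagged1 against Fc in DAPT was near 0 and took either sign. For NOTCH2KO against WT the log2 difference was -2.21 with a pseudocount of 0.1, -1.54 in FPKM and -1.55 in coverage; for DAPT on Jagged1 it was -2.13 with that pseudocount and -1.44 in FPKM, and for DAPT on Fc -1.29 and -0.83. FPKM and the pseudocount change how far the added constant shrinks low values. The number of cholinergic genes called with a log2 difference of at least 1 was 3 in NOTCH1KO cells and 1 in NOTCH2KO cells. With single libraries left out it ranged from 3 to 6 in each knockout; it was 3 in NOTCH1KO cells without WT on Fc with DMSO or WT on Fc with DAPT, and 3 in NOTCH2KO cells without WT on Jagged1 with DMSO or with DAPT. The culture counts were 0 in all alternatives that could be fitted. The calls of LY6E and UBXN2A were also lost without a filter, in coverage and with centred medians, and that of AGRN without a filter, in FPKM, with centred medians and with the pseudocount of 0.1. Near CHRNA9, the number of genes called in NOTCH2KO cells was 7 in coverage. Libraries were matched by genotype and culture in the additive model; a further block on replicate numbers could not be fitted, since each combination had 1 library. The depth limits CHRNA9 in the cultures with DAPT, where 6 to 39 reads were estimated per library.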
